A study of Homo sapiens with 4 samples.

Results

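Nuclear receptor genes encode transcription factors that bind DNA through a zinc-finger domain and, in many cases, switch their activity when a small lipophilic ligand such as a steroid, a retinoid, vitamin D, thyroid hormone or a fatty acid binds. Of 45 listed nuclear receptor genes, 38 had at least 1 probe set annotated to that gene alone, for a total of 124 probe sets among the 54675 of the array. The remaining 7 (NR0B1, NR1D1, NR1H2, NR1H4, NR1I2, NR2F2 and HNF4A) were not analysed here, and 3 probe sets shared by NR1D1 and THRA were not used. The number of probe sets per gene lay between 1 and 9.

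RNA came from CL1-5, an invasive human lung adenocarcinoma line, and from CL1-0, the less invasive line it was derived from, with 1 Affymetrix array for each of 4 puromycin-selected, stably transduced populations. The CL1-5 populations carried an shRNA against G9a or a control shRNA, and the CL1-0 populations carried HA-tagged G9a or the control vector. G9a, encoded by EHMT2, is a histone methyltransferase that marks silent chromatin. Each arm was 1 population made with 1 construct, so a within-line difference has no replicate check and no p-value. EHMT2 read 28.1 with the G9a shRNA against 376 with the control shRNA, and 862 with HA-G9a against 419.7 with the vector. EHMT1, which encodes the partner enzyme of G9a, read 463 with the G9a shRNA against 377 with the control shRNA, and 231 with HA-G9a against 309 with the vector.

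Values are MAS5 intensities on a linear scale, and a ratio is the log2 ratio of 2 arrays after raising values to a floor of 3.35 and subtracting the median gene of that comparison. The gene's probe set with the highest mean intensity stands for the gene, and intensities of different probe sets do not rank genes by abundance. A gene was measured in a comparison when the brighter array reached 12.5, the median of all values. The array medians were 14.9 for CL1-5 G9a shRNA, 11.3 for CL1-5 control shRNA, 12.3 for CL1-0 HA-G9a and 11.7 for CL1-0 vector. Subtracting the median gene removed a log2 shift of 0.42 in the knockdown comparison, -0.08 in the HA-G9a comparison and -0.01 between the control populations. By construction the median of all genes is then 0.

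The cells are labelled as of type II alveolar origin. Of 9 type II markers 7 passed 12.5 on at least 1 array, but so did 13953 of all 19741 genes, so the count does not bear on the label. SFTPC read 29.8 and 33.5 in CL1-5 G9a shRNA and control shRNA cells and 6.72 and 21.3 in CL1-0 HA-G9a and vector cells. Of 7 type II markers measured in CL1-5, 2 were at least 2-fold higher after the knockdown and 2 lower. Of all genes 8.13% and 7.76% were. The ratios were 1.14 for NAPSA, 1.13 for ABCA3, -3.35 for NKX2-1 and -3.43 for HOPX. Of these NAPSA, NKX2-1 and HOPX reached 12.5 on 1 of the 2 arrays alone and so had to differ. With HA-G9a 1 of 4 was higher and 1 lower, where 5.46% and 3.74% of all genes were. Of 6 epithelial markers measured in CL1-5, 3 were at least 2-fold higher after the knockdown and 1 lower, where 8.13% and 7.76% of all genes were. CDH1 (E-cadherin) read 77.6 with the G9a shRNA against 2.36 with the control shRNA, CLDN3 88.4 against 1.05 and EPCAM 18.1 against 6.06. These 3 reached 12.5 on the G9a shRNA array alone and so had to differ. The lower one was KRT8, at 325 with the G9a shRNA against 757 with the control shRNA. With HA-G9a in CL1-0, 3 of 6 (KRT8, KRT18 and CLDN4) were at least 2-fold higher and 0 lower, where 5.46% and 3.74% of all genes were. Of 6 mesenchymal markers 4 were lower and 0 higher after the knockdown, with ratios of -6.32 for SPARC, -2.93 for FN1, -2.55 for ZEB2 and -1.81 for CDH2. The summed intensities of these lists are mostly KRT18 (between 545 and 2945) and VIM (between 4921 and 5219) and do not show these differences after the knockdown. Summed over 6 endothelial markers the intensity was 103 with the G9a shRNA against 483 with the control shRNA in CL1-5, and 32.7 with HA-G9a against 44.6 with the vector in CL1-0. PECAM1 read 81.5 with the G9a shRNA against 318 with the control shRNA, CLDN5 7.87 against 81.8, CDH5 5.24 against 62.3 and KDR 3.27 against 17.2. All 4 endothelial markers measured in CL1-5 were thus at least 2-fold lower after the knockdown, where 7.76% of all genes were. The same 4 were at least 2-fold higher in CL1-5 control than in CL1-0 vector cells, where 12.6% of all genes were. In both comparisons CLDN5, CDH5 and KDR reached 12.5 on the CL1-5 control array alone and so had to differ. VWF and TEK read 1.97 and 1.86 in the CL1-5 control, below the floor. The part of these marker differences in the receptor values was not tested. Summed intensities of the other marker lists were 191, 261, 150.5 and 157 for type II cells, 3080.3, 3751, 2392 and 687 for epithelial cells, 5764, 6283, 5524 and 5326 for mesenchymal cells, 37.4, 35.8, 24.2 and 30.1 for leukocytes, 74.4, 39.6, 161 and 449.5 for fibroblasts and 56.2, 37.6, 50.4 and 67.5 for liver and gut. These are in the order CL1-5 G9a shRNA, CL1-5 control shRNA, CL1-0 HA-G9a and CL1-0 vector.

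Receptors act as monomers, as homodimers or as heterodimers with a retinoid X receptor (RXR), and many recognise variants of a short DNA half-site, AGGTCA. Bound receptors recruit corepressors or coactivators, and G9a is among the chromatin enzymes that such complexes can contain. In the lung, the glucocorticoid receptor and the retinoic acid receptors are known for roles in epithelial maturation, and RARB is a gene often lost in lung cancer.

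In CL1-5 control cells 9 of 27 measured receptors were at least 2-fold lower than in CL1-0 vector cells, where 13.2% of all genes were, and 3 were at least 2-fold higher, where 12.6% of all genes were. The 9 were NR2F1, RARB, RARG, NR4A1, NR4A2, NR4A3, ESR1, ESRRG and NR2E3, and the 3 were PPARG, NR3C1 and PGR. The median ratio of the measured receptors was -0.44. Of the 27, 9 passed the filter through 1 of the 2 arrays alone, and those had to differ, so the count describes these arrays and carries no test. Among all 30 receptors measured on any array, both CL1-5 arrays read below both CL1-0 arrays for 13 (17.0% of all genes) and above them for 10 (37.5% of all genes). These are intensities as deposited, with no median gene subtracted, and the CL1-5 G9a shRNA array had the highest median (14.9).

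Both CL1-5 arrays were set against both CL1-0 arrays in a limma model over 13953 genes, with Benjamini-Hochberg adjustment over all of them. Of 30 receptors tested, 4 were called lower in CL1-5 (RARB, NR2F1, NR4A3 and NR4A1), where 1.53% of all genes were, and 0 were called higher, where 0.860% were. Of the 30, 10 passed the filter through 1 line alone and so had to differ, among them NR2F1, RARB and NR4A3, and the count of calls carries no weight for the receptors as a group. At an unadjusted p below 0.05 the model had 16 of the 30. The share of all genes at that level is not given here, so this number does not set the receptors apart. Within each line the spread is that between the altered and the control population, which puts any effect of G9a into the error. The model has 2 residual degrees of freedom, and without 1 array it called 2 receptors or 0, as given in the closing part.

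**Figure D1:**
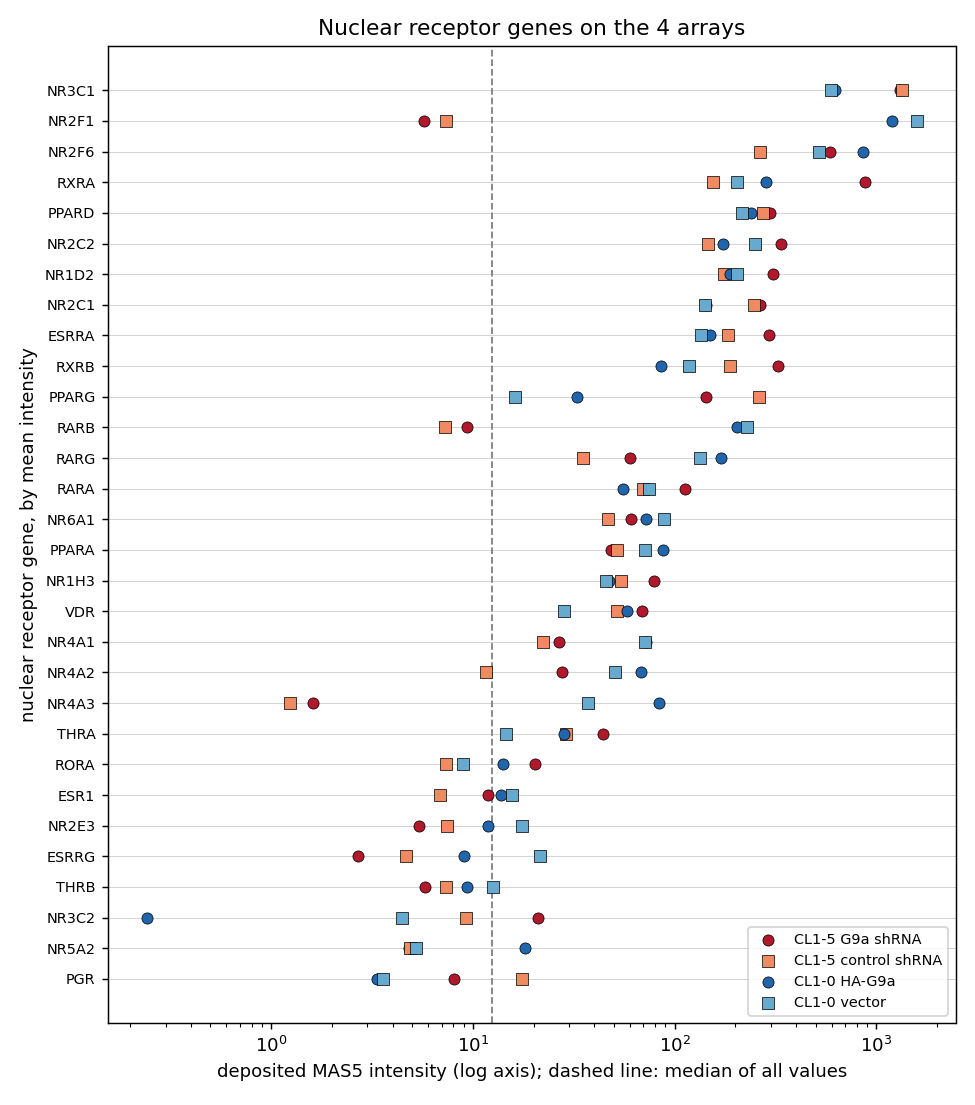
Deposited MAS5 intensity (log axis) of the 30 nuclear receptor genes measured on at least 1 array, one row per gene, with a point for each of the 4 arrays and a dashed line at the median of all values. NR2F1, RARB and NR4A3 lie left of the line on both CL1-5 arrays and far right of it on both CL1-0 arrays, and PPARG shows the opposite order of the lines.

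NR2F1 (COUP-TF1), an orphan receptor of neural and organ patterning that often represses transcription, had the largest ratio of the receptors between the control populations. Its only probe set read 5.73 and 7.36 in CL1-5 G9a shRNA and control shRNA cells, against 1192 and 1590.0 in CL1-0 HA-G9a and vector cells. Both CL1-5 values were below the median of all values and both CL1-0 values far above it, so NR2F1 was near background in one line and bright in the other. In bulk RNA such as this, fewer cells with a transcript and less of it per cell cannot be told apart. The ratio of the control populations was -7.74. The limma difference between the lines was -8.03 ± 0.36 (log2, SE), with an adjusted p of 0.00979. In CL1-0 HA-G9a cells the ratio to the vector was -0.33, under 2-fold.

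RARB encodes retinoic acid receptor beta, a receptor and itself a target gene of retinoic acid. It read 9.33 and 7.31 in CL1-5 G9a shRNA and control shRNA cells, against 203 and 228 in CL1-0 HA-G9a and vector cells. A separate RARB probe set read 2.71 and 1.62 in CL1-5 against 129.6 and 143 in CL1-0, in the same order of arrays. The 2 probe sets past the filter gave a mean ratio between the control populations of -5.17, a lower bound in size because the second was below the floor in CL1-5. The limma difference between the lines was -5.01 ± 0.21 (log2, SE; adjusted p of 0.00979 after Benjamini-Hochberg). The 3 other RARB probe sets stayed below 12.5 on all arrays.

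The other retinoic acid receptors were less far apart. RARG read 59.8 and 35.1 in CL1-5 G9a shRNA and control shRNA cells, against 169 and 133 in CL1-0 HA-G9a and vector cells. Both CL1-5 values were lower on this probe set, the ratio of the control populations was -1.91, and both its probe sets past the filter gave that ratio. After the knockdown they gave 0.35 and 1.27. On the second one the lines overlapped, at 63.8 in CL1-5 G9a shRNA cells against 57.8 in CL1-0 HA-G9a cells. The limma difference of -2.01 ± 0.28 (log2, SE) had an adjusted p of 0.0567 and was not called, though it was called in 3 of the alternative settings. RARA, which most cells express, was within 2-fold in each comparison by the probe set with its highest mean, with a ratio of -0.08 between the control populations.

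RARB is shown with the start region that holds its textbook retinoic acid response element, and CYP26A1, which encodes the enzyme that breaks down retinoic acid, with the region that holds a repeat of the same kind. The windows are the 250 bases before an annotated start in RefSeq, build GRCh38.p14, printed 5′ to 3′ on the gene's strand. Capitals mark the direct repeat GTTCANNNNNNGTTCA, or TGAACNNNNNNTGAAC on the other strand.
RARB, chr3:25428013-25428262, plus strand: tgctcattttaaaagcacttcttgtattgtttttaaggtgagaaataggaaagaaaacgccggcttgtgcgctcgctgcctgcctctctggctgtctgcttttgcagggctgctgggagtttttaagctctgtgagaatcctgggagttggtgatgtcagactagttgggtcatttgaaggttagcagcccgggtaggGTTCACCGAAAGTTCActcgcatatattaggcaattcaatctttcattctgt
CYP26A1, chr10:93073643-93073892, plus strand: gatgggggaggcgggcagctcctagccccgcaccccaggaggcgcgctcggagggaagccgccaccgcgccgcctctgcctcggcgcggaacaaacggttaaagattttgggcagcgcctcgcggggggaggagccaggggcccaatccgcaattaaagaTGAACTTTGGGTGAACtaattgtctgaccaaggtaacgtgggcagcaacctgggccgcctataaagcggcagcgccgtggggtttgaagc

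The repeat began 52 bases before the RARB start and 90 bases before the CYP26A1 start. RARB has 4 start windows in the table and CYP26A1 has 2. The letters searched were taken from the known RARB element, so its presence there is no finding. Of 35116 start windows of all genes, 17 held the repeat on either strand, a share of 0.0484%. These belonged to 16 genes, of which 7 were measured between the control populations. Of the 7, RARB and CYP26A1 were at least 2-fold lower in CL1-5 and 0 were higher, where 13.2% and 12.6% of all genes were. RARB was in that count by the choice of the letters, which leaves CYP26A1 and 5 genes within 2-fold. A match is a description of letters and not a bound site. The AGGTCA half-site, on either strand, was in 16.1% of the 93 windows of 40 listed receptor genes, against 12.1% of all windows.

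Genes of retinoid supply and breakdown and RAR targets were tracked as a list of 19, of which 14 were measured between the control populations. In CL1-5 control cells 7 of them were at least 2-fold lower than in CL1-0 vector cells and 1 was higher, with a median ratio of -1.07. The higher one was TGM2, tissue transglutaminase and a RAR target, at 236 in CL1-5 control cells against 50.01 in CL1-0 vector cells. Beside this and each list count that follows stand the shares of all genes: 13.2% lower and 12.6% higher between the control populations, 7.76% lower and 8.13% higher after the knockdown, and 3.74% lower and 5.46% higher with HA-G9a. By limma the shares were 1.53% lower and 0.860% higher. Of the lower list genes ALDH1A1, CYP26A1 and DHRS3 passed the filter on the CL1-0 vector array alone and so had to differ. Other lists also hold such genes, so the list counts carry no test. ALDH1A1, which makes retinoic acid from retinaldehyde, read 0.71 and 0.49 in CL1-5 G9a shRNA and control shRNA cells, against 1570.1 and 2280.5 in CL1-0 HA-G9a and vector cells. CYP26A1 read 2.07 and 0.63 in CL1-5, against 221 and 128 in CL1-0, in the same order. Both were below the floor on both CL1-5 arrays, so their ratios are lower bounds in size. By limma with Benjamini-Hochberg adjustment 2 of the 14 list genes were called lower in CL1-5 and 0 higher, namely ALDH1A1 (adjusted p of 0.00979) and CYP26A1 (adjusted p of 0.0198). Both passed the filter through CL1-0 alone.

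RDH10, a retinol dehydrogenase upstream of ALDH1A1, read 448 and 171 in CL1-5 G9a shRNA and control shRNA cells, against 1092 and 1337 in CL1-0 HA-G9a and vector cells. CYP26B1, a further retinoic acid hydroxylase, read 72.8 and 43.9 in CL1-5, against 119 and 369 in CL1-0. All 4 of these enzymes were dimmer in the CL1-5 control than in the CL1-0 vector population, but other enzymes of the list were not all so. ALDH1A3, which also makes retinoic acid, read 54.5 and 119 in CL1-5 G9a shRNA and control shRNA cells, against 73.9 and 76.6 in CL1-0 HA-G9a and vector cells. Its ratio between the control populations was 0.65, and that of RDH11, a retinaldehyde reductase, was -0.53. Within CL1-5, 3 of 11 measured list genes were at least 2-fold lower with the G9a shRNA than with the control shRNA and 0 were higher. TGM2 had the largest of those ratios at -4.36. Beside it stood PLAAT4 at -1.70 and ALDH1A3 at -1.55. Within CL1-0, 4 of 13 were higher with HA-G9a than with the vector and 1 was lower. CRABP2, a carrier of retinoic acid, had a ratio of 1.77, TGM2 of 1.39, DHRS3, a retinaldehyde reductase, of 1.38 and CYP26B1 of -1.55.

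**Figure D2:**
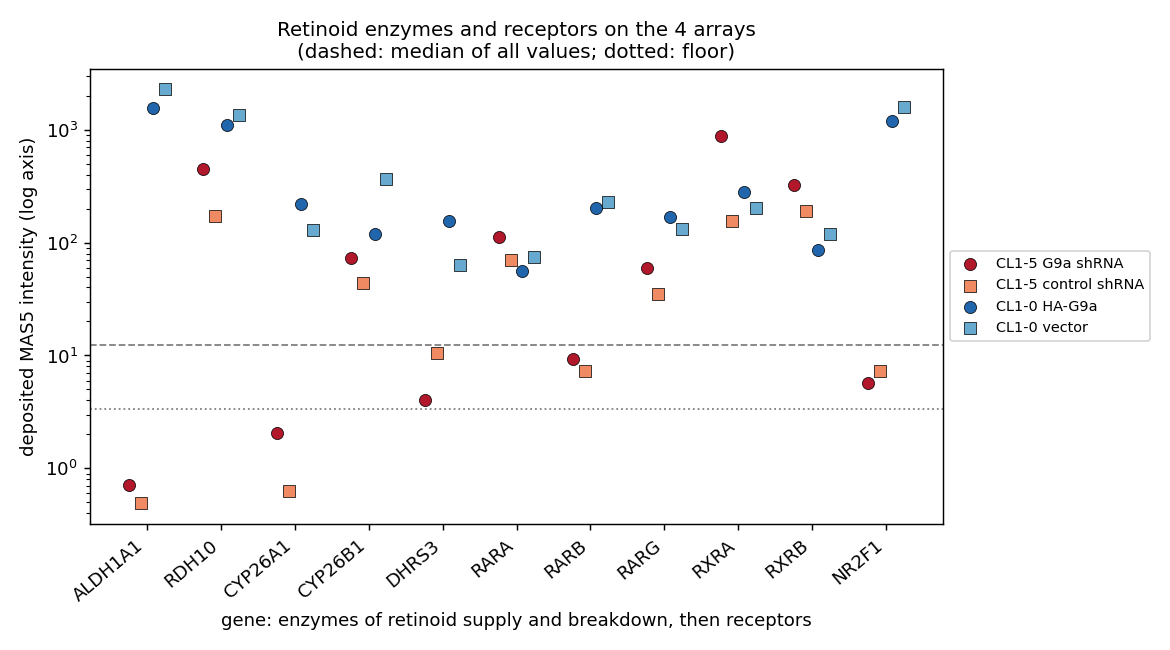
Deposited MAS5 intensity (log axis) of retinoid enzymes and of retinoid-related receptors on the 4 arrays, with the median of all values dashed and the floor dotted. ALDH1A1, CYP26A1, RARB and NR2F1 read above 100 on both CL1-0 arrays and below 12.5 on both CL1-5 arrays, while RARA lies between 55.6 and 112 on the 4 arrays.

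The NR4A receptors are immediate-early genes that signals such as cAMP and calcium induce within minutes, and they act without a classical ligand. NR4A3 read 1.62 and 1.24 in CL1-5 G9a shRNA and control shRNA cells, against 84.0 and 37.2 in CL1-0 HA-G9a and vector cells. The CL1-5 values were below the floor, so the ratio of -3.46 between the control populations is a lower bound in size, and the other probe set past the filter gave -1.30. In limma the difference was -4.36 (adjusted p of 0.0408), but the floor set both CL1-5 values, and with them their level and spread. With the floor at 12.5 the limma difference was -2.46 (adjusted p of 0.0495).

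NR4A1 read 26.7 and 22.2 in CL1-5 G9a shRNA and control shRNA cells, against 72.3 and 71.1 in CL1-0 HA-G9a and vector cells. The limma difference was -1.86 ± 0.22 (log2, SE; adjusted p of 0.0414). Its 3 probe sets disagreed, with ratios between the control populations of -1.66, -0.97 and 0.05. The one that stands for the gene is of a type that can cross-hybridise, as are those that stand for NR4A2, NR3C1 and NR6A1. NR4A2 read 27.7 and 11.6 in CL1-5, against 67.9 and 50.5 in CL1-0, in the same order. Its 3 probe sets agreed, with a mean ratio of -2.30 ± 0.43 (SD, n = 3 probe sets), yet limma did not call it (adjusted p of 0.0939). On every probe set of the 3 genes that stands for its gene, both CL1-5 values were below both CL1-0 values.

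NR4A3 is shown with its start region because the family is known to respond to cAMP through CREB, whose half-site is TGACG. Capitals mark TGACG, or CGTCA on the other strand, in the 250 bases before the start in RefSeq.
NR4A3, chr9:99821635-99821884, plus strand: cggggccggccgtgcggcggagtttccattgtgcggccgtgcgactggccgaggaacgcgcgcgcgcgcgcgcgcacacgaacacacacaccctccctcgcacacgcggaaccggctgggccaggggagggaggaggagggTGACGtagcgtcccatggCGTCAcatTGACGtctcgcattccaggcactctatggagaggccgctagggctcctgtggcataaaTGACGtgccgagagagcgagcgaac

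The window held 4 copies that did not overlap, and 1.01% of all windows held 3 or more. Both NR4A1 windows held 0. At least 1 copy was in 17.2% of the receptor windows, against 21.2% of all windows. Within CL1-0, NR4A3 was 2.39-fold higher with HA-G9a than with the vector, relative to the median gene, at 84.0 against 37.2. On the other probe set past the filter HA-G9a cells had 51.0, against 28.6 in vector cells. NR4A1 and NR4A2 stayed within 2-fold there, at ratios of 0.11 and 0.51. Within CL1-5 NR4A3 was not measured, and the ratios of NR4A1 and NR4A2 were -0.16 and 0.83.

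PPARG encodes the fatty acid receptor that directs adipocyte differentiation and, in the lung, lipid handling of alveolar cells and macrophages. Its only probe set read 143 and 261 in CL1-5 G9a shRNA and control shRNA cells, against 32.9 and 16.3 in CL1-0 HA-G9a and vector cells. It was thus higher in both CL1-5 populations, lower with the G9a shRNA than with its control, and higher with HA-G9a than with the vector. The ratio was -1.29 after the knockdown, 1.10 with HA-G9a and 4.02 between the control populations. PPARG was the only one of the 20 receptors measured in both G9a comparisons to be at least 2-fold lower after the knockdown and at least 2-fold higher with HA-G9a. Of all genes measured in both, 1.05% had this pattern. The knockdown ratio was -0.87 without subtracting the median gene, and the HA-G9a ratio 0.94 with the arrays scaled to one median, both under 2-fold. The limma difference between the lines was 2.76 ± 0.62 (log2, SE; adjusted p of 0.108) and was not called, though it was called with a trended fit.

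The reverse pattern, higher after the knockdown and lower with HA-G9a, was seen for 0 of the 20 receptors and 0.412% of all genes. Higher in both was also seen for 0 of them and 0.732% of all genes. The 2 G9a comparisons share no array, whereas each shares its control array with the comparison of the control populations.

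**Figure D3:**
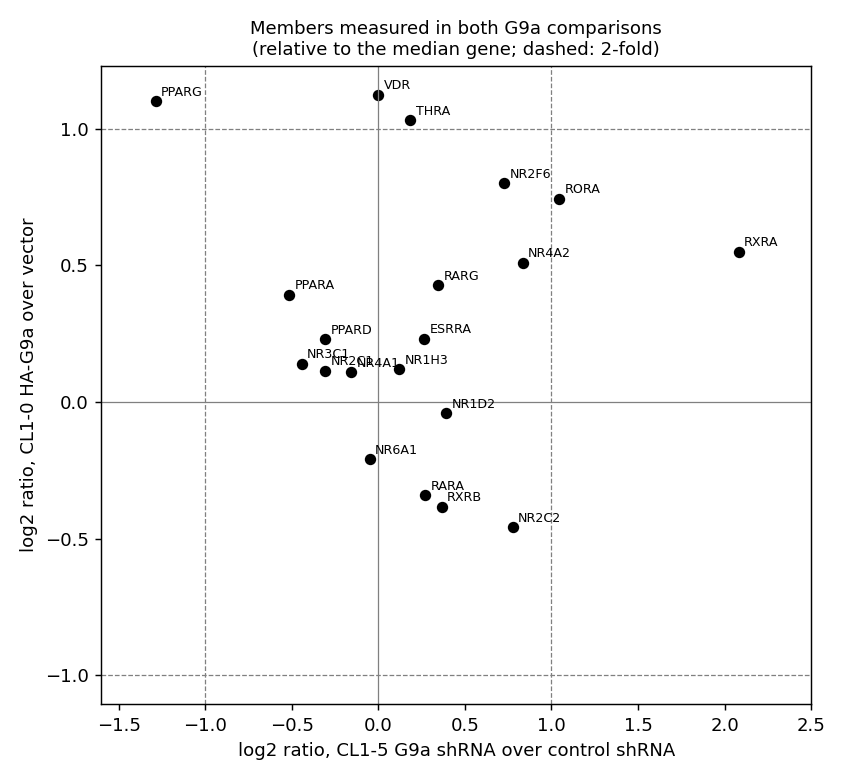
Log2 ratios relative to the median gene for the 20 receptors measured in both G9a comparisons, with CL1-5 G9a shRNA over control shRNA on the horizontal axis and CL1-0 HA-G9a over vector on the vertical axis. Dashed lines mark 2-fold. PPARG alone lies in the upper left corner past both lines, and RXRA lies far right at 2.08.

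By the probe sets that stand for them, the other PPAR genes differed little. PPARD read 297 with the G9a shRNA against 275 with the control shRNA, and 239 with HA-G9a against 216 with the vector. By this probe set its ratios lay between -0.31 and 0.36, and its other probe sets past the filter had ratios up to 0.74. PPARA probe sets past the filter had ratios down to -1.09 after the knockdown and up to 1.92 with HA-G9a. Their means were -0.52 and 0.18. Of 11 PPAR target genes measured between the control populations 4 were lower in CL1-5 and 0 higher (median -0.26), led by the fatty acid transporter gene CD36 at a ratio of -3.33, its CL1-5 value below the floor. UCP2, ANGPTL4 and CPT1A had ratios of -1.84, -1.58 and -1.38. After the knockdown 2 of 10 were lower and 0 higher (median -0.08). PLIN2, the lipid droplet coat gene, read 338 with the G9a shRNA against 721 with the control shRNA, and UCP2 160.2 against 323. With HA-G9a 1 of 11, ANGPTL4, was higher at a ratio of 1.01 and 1, CD36, lower at -1.17 (median -0.03). By limma 0 of 12 PPAR targets were called.

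RXRA, the common dimer partner of many receptors, was the receptor with the largest ratio after the knockdown. It read 882 with the G9a shRNA against 156 with the control shRNA in CL1-5, and 282 with HA-G9a against 204 with the vector in CL1-0. The CL1-5 G9a shRNA array stood above the other 3. The ratio after the knockdown was 2.08, or 4.23-fold. The other RXRA probe set read 161 with the G9a shRNA against 91.6 with the control shRNA, a ratio of 0.39, so both pointed the same way and differed in size. RXRB, the partner most tissues share, read 326 with the G9a shRNA against 189 with the control shRNA (0.37), and 85.7 with HA-G9a against 118 with the vector (-0.38).

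In all, 2 of 22 receptors measured in CL1-5 were at least 2-fold higher after the knockdown, where 8.13% of all genes were, and 2 were lower, where 7.76% were. The median ratio of the 22 was 0.22. Of the 22, 4 passed the filter through 1 of the 2 arrays alone and so had to differ, among them RORA and PGR. The count thus carries no test. Besides RXRA the higher one was RORA, a receptor of the circadian clock and of lymphoid cells, at 20.3 with the G9a shRNA against 7.37 with the control shRNA. Its probe sets disagreed. The 2 others past the filter had ratios of -1.76 and -2.20, and with the mean of its probe sets the ratio of RORA turned to -0.98. Besides PPARG the lower one was PGR, the progesterone receptor, at 8.02 with the G9a shRNA against 17.6 with the control shRNA. In CL1-0 PGR read 3.35 with HA-G9a and 3.61 with the vector, so it passed the filter on 1 array of the 4.

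**Figure D4:**
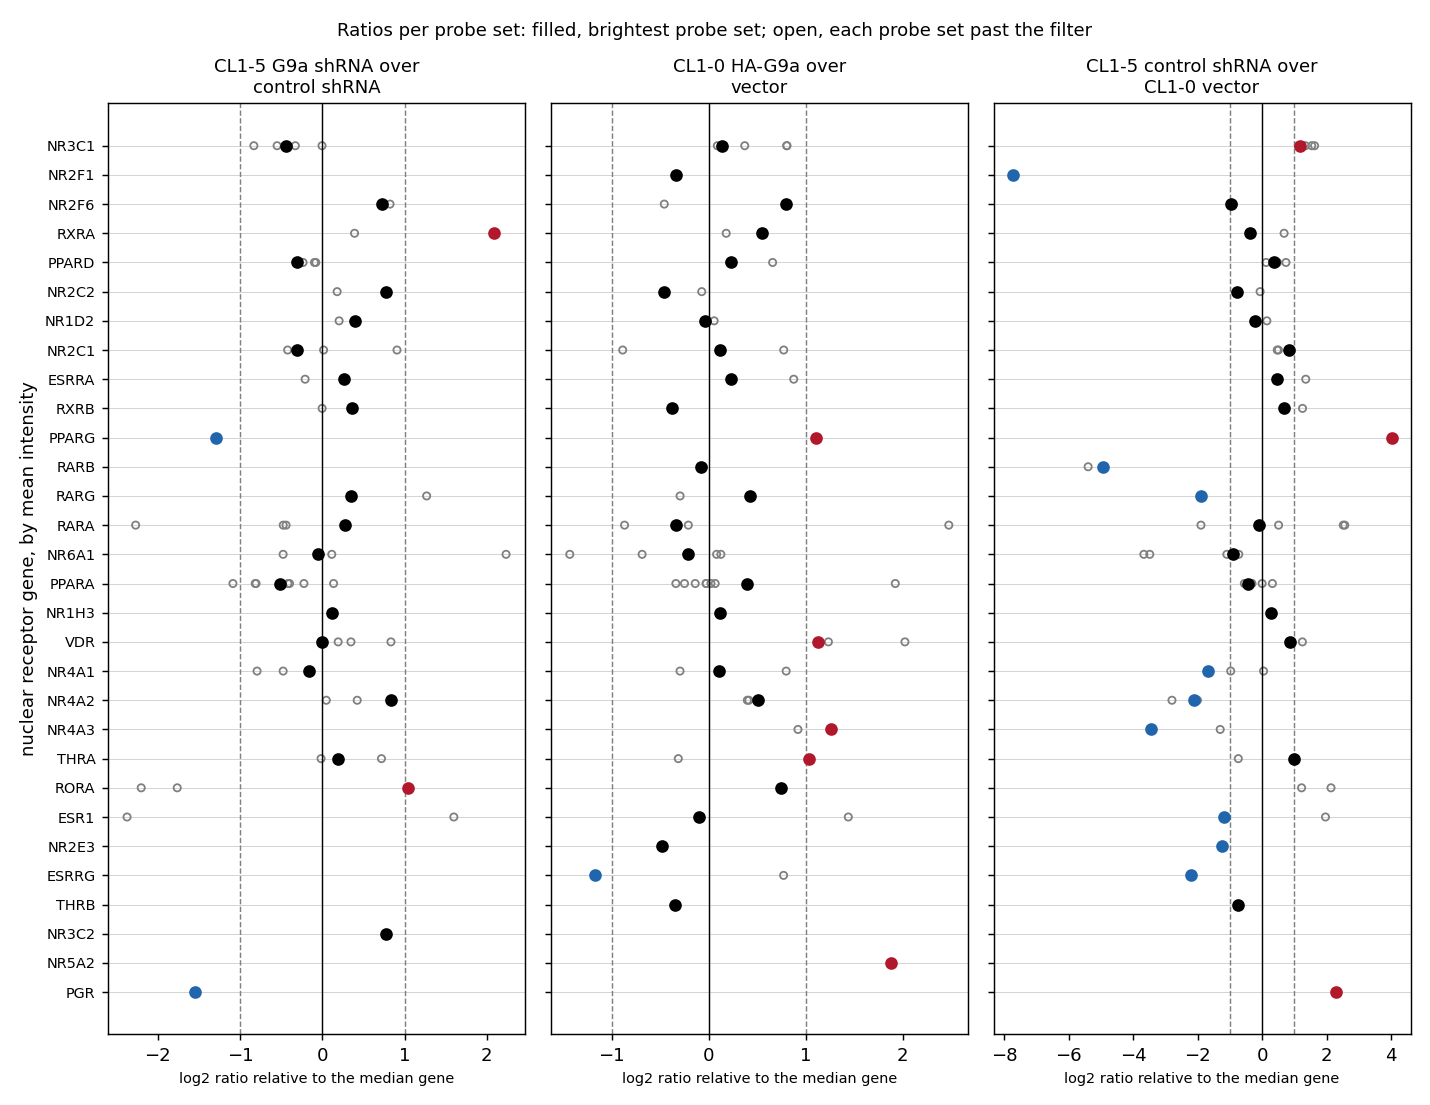
Log2 ratios relative to the median gene in the 3 comparisons for 30 receptors, ordered by mean intensity. Filled points are the probe set with the highest mean intensity (red past 2-fold higher, blue past 2-fold lower, black neither) and open points are all probe sets past the filter; RORA, ESR1 and RARA have open points on both sides of 0, and the axis of the right panel is wider than the others.

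With HA-G9a in CL1-0, 5 of 28 measured receptors were at least 2-fold higher than with the vector, where 5.46% of all genes were, and 1 was lower, where 3.74% were. The median ratio of the 28 was 0.13. Of the 28, 5 passed the filter through 1 of the 2 arrays alone and so had to differ, among them NR5A2 and ESRRG. The count thus describes these arrays and carries no test. The 5 were NR5A2, NR4A3, VDR, PPARG and THRA, and the lower one was ESRRG. All 6 were below 84.2, the 75th percentile of all values, on both CL1-0 arrays. Above that value 0 of 14 receptors passed 2-fold.

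VDR, the vitamin D receptor, read 58.4 in HA-G9a cells against 28.4 in vector cells in CL1-0, and 69.1 with the G9a shRNA against 51.7 with the control shRNA in CL1-5. The CL1-0 vector array was the lowest of the 4. Its 3 probe sets past the filter in CL1-0 were all higher, with a mean ratio of 1.46 ± 0.49 (SD, n = 3 probe sets). Among vitamin D receptor targets 1 of 5 measured was higher with HA-G9a and 0 lower (median -0.01): IGFBP3, an insulin-like growth factor carrier, read 69.7 against 5.06 with the vector. After the knockdown 2 of 4 were lower and 0 higher (median -1.37). SPP1, which encodes osteopontin, read 3.18 with the G9a shRNA against 34.8 with the control shRNA, and BMP6 15.4 against 55.8. Between the control populations SPP1 was the 1 of 4 that was lower in CL1-5 and 0 were higher (median 0.38), at 34.8 against 5892. By limma 0 of 5 were called.

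THRA, a thyroid hormone receptor, read 28.3 in HA-G9a cells against 14.7 in vector cells, a ratio of 1.03. The other probe set past the filter had a ratio of -0.31. NR5A2, a receptor of liver, pancreas and gonad, read 18.1 in HA-G9a cells against 5.21 in vector cells, and 4.81 and 4.87 in CL1-5 G9a shRNA and control shRNA cells. It passed the filter on the HA-G9a array alone. ESRRG, an estrogen-related receptor of oxidative tissues, read 9.03 in HA-G9a cells against 21.5 in vector cells, and 2.69 and 4.65 in CL1-5 G9a shRNA and control shRNA cells. Its other probe set had a ratio of the opposite sign with HA-G9a, 0.77.

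NR3C1, the glucocorticoid receptor, read 1312 and 1333 in CL1-5 G9a shRNA and control shRNA cells, against 621 and 596 in CL1-0 HA-G9a and vector cells. All 5 of its probe sets were higher in the CL1-5 control than in the CL1-0 vector population, with a mean ratio of 1.36 ± 0.22 (SD, n = 5 probe sets). The limma difference of 0.82 ± 0.26 (log2, SE) was not called (adjusted p of 0.173). After the knockdown the 5 probe sets had a mean ratio of -0.43 ± 0.30, and with HA-G9a of 0.44 ± 0.35 (SD, n = 5 probe sets each), both under 2-fold.

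Genes of glucocorticoid receptor chaperones and targets differed in both directions. Of 16 measured between the control populations 5 were higher in CL1-5 and 2 lower (median -0.01). SGK1, a kinase that glucocorticoids induce, read 213 in CL1-5 control cells against 24.7 in CL1-0 vector cells, and DUSP1, a phosphatase gene, 1336 against 238. HSD11B1, which activates cortisol, had a ratio of 3.59 with its CL1-0 value below the floor. TSC22D3 (GILZ), a classical glucocorticoid target, read 11.9 against 52.8. After the knockdown 4 of 17 were lower and 1 higher (median -0.29). DUSP1 and SGK1 had ratios of -2.71 and -2.24, HSD11B1 of -1.05, and HSD11B2, which inactivates cortisol, of 1.32. With HA-G9a 1 of 15, SGK1, was higher at 111 against 24.7 with the vector, and 0 were lower (median 0.14). By limma 0 of 17 were called.

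ESR1, the estrogen receptor alpha gene, had 9 probe sets, and the highest value of any of them was 18.0. The one with the highest mean read 11.9 and 6.86 in CL1-5 G9a shRNA and control shRNA cells, against 13.8 and 15.6 in CL1-0 HA-G9a and vector cells. Its ratio of -1.17 between the control populations turned to 0.39 with the mean of the probe sets past the filter. Of 10 estrogen and progesterone receptor targets measured between the control populations 6 were higher in CL1-5 and 2 lower (median 1.43). IGFBP4 read 2308 in CL1-5 control cells against 21.3 in CL1-0 vector cells, KLF4 1111 against 47.2, CXCL12 63.6 against 1.13, and FOXA1, a pioneer factor that opens chromatin for steroid receptors, 9.20 against 192. By limma with Benjamini-Hochberg adjustment 1 was called higher, IGFBP4 (adjusted p of 0.0236), and 2 lower, FOXA1 (adjusted p of 0.0105) and GATA3 (adjusted p of 0.0446). After the knockdown 2 of 9 were lower and 0 higher (median -0.32), CXCL12 at a ratio of -4.10 and GREB1 at -1.88. With HA-G9a 3 of 8 were higher and 0 lower (median 0.36), KLF4 at 1.80, IGFBP4 at 1.24 and TFF1 at 1.11.

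Several receptors with bright signals were within 2-fold in all 3 comparisons by the probe set that stands for the gene. They were ESRRA, an estrogen-related receptor of mitochondrial genes, NR1D2 (REV-ERB beta), a clock repressor, the testicular receptors NR2C1 and NR2C2, and NR2F6, a COUP-TF relative, beside PPARD and RXRB. Between the control populations the other probe set past the filter was more than 2-fold higher in CL1-5 for ESRRA (1.36) and for RXRB (1.26). NR2F6 read 587 with the G9a shRNA against 265 with the control shRNA, and 856 with HA-G9a against 521 with the vector, with ratios of 0.73 and 0.80. Its other probe set past the filter gave -0.46 with HA-G9a. Between the control populations the ratio of NR2F6 was -0.96, close to 2-fold, and -1.07 after quantile normalization. NR2C2 read 335 with the G9a shRNA against 146 with the control shRNA, and 173 with HA-G9a against 252 with the vector, with ratios of 0.78 and -0.46. NR1D2 read 308 with the G9a shRNA against 175 with the control shRNA (0.39), and 188 with HA-G9a against 205 with the vector (-0.04). ESRRA read 295 against 183 (0.26), and 149.5 against 135 (0.23), in the same pairs. NR2C1 read 266 against 246 (-0.31), and 144 against 141 (0.11), again in the same pairs. NR2E3, a photoreceptor cell receptor, read 5.43 and 7.43 in CL1-5 G9a shRNA and control shRNA cells, against 11.9 and 17.6 in CL1-0 HA-G9a and vector cells. It was above the filter on the vector array alone.

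The remaining 6 measured receptors (NR1H3, NR3C2, NR6A1, PPARA, RARA and THRB) were within 2-fold by the probe set that stands for the gene, with ratios between -0.51 and 0.77 after the knockdown, -0.34 and 0.39 with HA-G9a, and -0.90 and 0.26 between the control populations. Other probe sets went further for some. All 6 NR6A1 probe sets past the filter were lower in CL1-5 control than in CL1-0 vector cells, with a mean ratio of -1.80, and NR6A1, a germ cell receptor, passed 2-fold with the mean over probe sets. Dim RARA probe sets had ratios of -2.27 after the knockdown, 2.47 with HA-G9a and 2.57 between the control populations. A further 8 (ESR2, HNF4G, NR0B2, NR1I3, NR2E1, NR5A1, RORB and RXRG), most of them known from liver, brain, gonad or retina, stayed below 12.5 on all 4 arrays with all 17 of their probe sets. Low MAS5 intensities do not show that a transcript is absent.

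Clock genes, which REV-ERB and ROR receptors control, had 2 of 12 higher after the knockdown and 1 lower (median 0.02). CLOCK read 544 with the G9a shRNA against 138 with the control shRNA, DBP 31.0 against 7.85, and NFIL3 213 against 384. With HA-G9a 1 of 12, BHLHE41, was higher at 29.3 against 6.21 with the vector, and 0 were lower (median -0.18). Of 12 measured between the control populations 2 were higher in CL1-5 and 2 lower (median -0.25). NPAS2 read 178 in CL1-5 control cells against 11.3 in CL1-0 vector cells. DBP had a ratio of -3.25, CLOCK of -1.54 and NFIL3 of 1.06. By limma 0 of 13 were called.

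Among targets of the sterol receptors LXR and FXR, 2 of 10 were higher after the knockdown and 0 lower (median 0.15). FGF19, a bile acid signal, read 92.8 with the G9a shRNA against 5.68 with the control shRNA, and MYLIP, an LDL receptor ubiquitin ligase, 328 against 57.8. With HA-G9a 1 of 9, the cholesterol exporter gene ABCA1, was higher at 201 against 45.5 with the vector, and 0 were lower (median -0.06). Between the control populations 1 of 9 was higher in CL1-5, ABCA1 at a ratio of 3.38, and 4 were lower (median -0.78), among them PLTP at -3.05, APOE at -3.04 and SREBF1 at -1.50. By limma with Benjamini-Hochberg adjustment 2 of 10 were called lower, APOE (adjusted p of 0.0215) and PLTP (adjusted p of 0.0336), and 0 higher.

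Xenobiotic genes of PXR and CAR had 5 measured members in CL1-5. After the knockdown 2 were higher and 0 lower (median 0.44), the conjugate exporter genes ABCC3 at 99.2 with the G9a shRNA against 16.7 with the control shRNA and ABCC2 at 139 against 45.1. With HA-G9a 0 of 4 passed 2-fold (median 0.16). In CL1-5 control against CL1-0 vector cells ABCC3 was higher at a ratio of 2.33, with the vector value below the floor, and ABCC2 lower at -1.16 (5 measured, median -0.48). By limma 0 of 5 were called. Estrogen-related receptor targets had 0 of 5 past 2-fold in each comparison and 0 called by limma, with medians of -0.10 after the knockdown, 0.20 with HA-G9a and -0.08 between the control populations.

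Receptors recruit coactivators and corepressors to DNA. Of 16 measured coactivators and mediators, 0 passed 2-fold after the knockdown (median 0.05) or with HA-G9a (median -0.01), and 1, PNRC1, was lower between the control populations at -1.12 (median 0.01). Of 11 corepressor genes 1 was lower after the knockdown and 0 higher (median -0.09), and 1 was higher with HA-G9a and 0 lower (median 0.10). In both cases this was NRIP1 (RIP140), a corepressor that ligand-bound receptors recruit. NRIP1 read 34.7 with the G9a shRNA against 113 with the control shRNA in CL1-5, and 236 with HA-G9a against 115 with the vector in CL1-0. Of all genes measured in both G9a comparisons, 1.05% were likewise at least 2-fold lower after the knockdown and at least 2-fold higher with HA-G9a. Whether G9a acts on NRIP1 was not tested. Of the 11 corepressor genes 1, LCOR, was higher in CL1-5 control than in CL1-0 vector cells at 1.10 (median -0.06). By limma 0 of the 16 and 0 of the 11 were called. Of 9 enzymes and partners of H3K9 methylation, 3 were lower after the knockdown (EHMT2 at -4.16, SETDB2 at -1.36 and ZNF644 at -1.12; median -0.36), 1 was higher with HA-G9a (EHMT2 at 1.12; median 0.12) and 0 passed 2-fold between the control populations (median 0.18). None of the 9 was called by limma.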

How the data were processed

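The authors deposited linear intensity values, 1 for each probe set on each array, made with MAS5 per the submitters' processing notes. Its settings are not given here. Probe sets were named through the platform annotation, with symbols updated by Entrez identifier to RefSeq GRCh38.p14 (41043 of 41097 single-gene probe sets matched). Probe sets with several genes (1801) or none listed (11777) and 58 of Y-linked genes or of 1 X-linked transcript were not used, which left 19741 genes. No detection calls were used, and precision is limited by having 4 arrays.

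The floor was 3.35 (25th percentile of all values), the filter 12.5 (median) and a stricter filter 84.2 (75th percentile). Calls within 1-array comparisons are 2-fold ratios with no test. For the line comparison, log2 values centred on each array's median were tested with limma 3.58.1 (R 4.3.3; lmFit, eBayes) at an adjusted p of 0.05. Tested on simulated data for this comparison (13953 genes, 200 changed), it recovered 0 genes changed by 2 on the log2 scale, 126 changed by 4 and 160 changed by 6. In the same order it wrongly called 0, 5 and 5 unchanged genes. Other steps used Python 3.11.15, pandas 2.3.3 and NumPy 2.4.6.

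The members and gene lists were chosen with earlier results of these data known. Receptors were named when past 2-fold in any 1-array comparison, among the 12 with the highest mean intensity, or called by limma. Of each pathway list up to 4 genes with the largest ratios past 2-fold were named in each comparison, and EHMT2 and EHMT1 always. Other scalings, floors, filters, probe set summaries, a trended eBayes fit and leaving out arrays were tried. The motifs, the sequences shown, RDH11 and the marker genes named were chosen after the values were seen.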

Additional observations from a re-analysis of the deposited data

How the results depend on the processing

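With 1 array in each population, the ratios within a line rest on single arrays, and dim genes limit them most. Probe sets of the same gene differed with a pooled SD (log2) of 0.54 in the knockdown comparison, 0.51 with HA-G9a and 0.65 between the control populations, and of 0.30, 0.25 and 0.41 above 84.2. No paired analysis was possible because each group had 1 array.

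Counts of receptors past 2-fold moved with the settings. After the knockdown, 2 higher and 2 lower became 6 and 1 without subtracting the median gene, 1 and 1 with the floor at 12.5, and 1 and 1 above 84.2; with the mean over probe sets 1 was higher. The unadjusted arrays carry the 0.42 shift toward higher values. With HA-G9a, 5 higher and 1 lower became 2 higher with the arrays scaled to one median, 0 higher and 0 lower above 84.2, 0 lower with the floor at 12.5 and 0 lower with the mean over probe sets. Between the control populations 3 higher became 5 without a filter, and 9 lower became 4 above 84.2, where fewer receptors were measured. The cause of the other moves was not tested. PPARG and VDR lost their HA-G9a call when the arrays were scaled to one median, and THRA kept its call in 1 of 6 settings, with ratios down to 0.34. PPARG after the knockdown lost its call without subtracting the median gene (-0.87).

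By limma, 4 receptors became 7 with a trended fit. Genes called among all those tested numbered 333, and became 1176 with a trended fit, 852 with the floor at 12.5 and 575 above 84.2. Leaving out 1 array left between 0 and 2: NR2F1 and RARB without the G9a shRNA array, when 113 of all genes were called, and 0 without the control shRNA, HA-G9a or vector array, when the model has 1 residual degree of freedom and called 0 of all genes. NR2F1 and RARB were called in all 7 other settings (adjusted p between 0.00041 and 0.0142 and between 0.0014 and 0.0142), NR4A3 in 5 of 6 (between 0.0146 and 0.0705) and NR4A1 in 3 of 6 (between 0.0166 and 0.103). RARG was called above 84.2, with the floor at 12.5 and with a trended fit. NR4A2 was called with the floor at 12.5, with a trended fit and with the mean over probe sets, and PPARG with a trended fit.

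With the mean over probe sets the ratio of RORA after the knockdown turned to -0.98 and that of ESR1 between the control populations to 0.39. Of 407 alternative ratios of named receptors, 387 moved by less than the SD between probe sets and 18 by more. The other 2 were these, which changed sign from a ratio past 2-fold. Sign changes of ratios under 2-fold were not counted as reversals. ESR1 with HA-G9a, for example, went from -0.10 to 0.65 with the mean over probe sets.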
